A study of Sus scrofa with 3 samples.

Results

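The miR-378 family was represented in the psoas major muscle of growing pigs by 1 porcine mature miRNA, ssc-miR-378, out of 276 porcine mature miRNA names listed in 1 or more of the 3 libraries. It was chosen by its name alone, as every mature name of the miR-378 family with the porcine prefix, whatever its letter or arm. Its reads were summed over all the hairpins at which it was listed. The muscle, the tenderloin, came from castrated male hybrid pigs (Landrace × Large White × Duroc) slaughtered at an age of 63, 98 or 161 d, and small RNA was sequenced to follow the miRNAs over this growing period. The diet was changed by weight stage, with less protein and lysine in each later stage, so diet and age cannot be told apart. The study describes no other treatment and no genetic change. Equal amounts of RNA from 6 pigs were pooled for each age, so each age had 1 library and no replicate. The variation between pigs of 1 age was therefore not measured, and no p-value is given. Intervals below are exact (Clopper-Pearson) 95% intervals of the read counts. They cover counting error only, and PCR copies were not marked with molecular identifiers.

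MicroRNAs are short RNAs that are cut from hairpin precursors and guide the silencing of mRNAs, mostly through the seed, bases 2 to 8 from their 5′ end. MiR-378 is known as a miRNA of muscle, heart and brown fat. Its hairpin lies inside the gene of PGC-1β, a coactivator of genes of mitochondria and fat oxidation, and is made along with that transcript. In mice both arms of the hairpin are known to act on energy metabolism, with Crat, an enzyme of fatty acid handling, and Med13, a part of the Mediator complex, among the targets.

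The mature sequence, the other arm and the porcine hairpin ssc-mir-378-1 that holds both are shown first, since the counts below depend on them. Ssc-miR-378 was listed at a second porcine hairpin as well, ssc-mir-378-2. In the first 2 lines the capitals mark the seed. In the hairpin line they mark the mature ssc-miR-378. All are written as DNA, as in the files.
ssc-miR-378: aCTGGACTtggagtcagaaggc
hsa-miR-378a-5p: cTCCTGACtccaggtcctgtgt
ssc-mir-378-1: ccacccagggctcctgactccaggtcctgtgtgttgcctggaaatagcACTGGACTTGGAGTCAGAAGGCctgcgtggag

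The 22 nt mature sequence was the same at both hairpins. It lay on the 3′ arm in both, and filled bases 49 to 70 of the 80 bases of ssc-mir-378-1. The other arms of the hairpins differed. The files placed ssc-mir-378-1 on the plus strand at 157640333 to 157640440, an interval of 108 bases that runs beyond both ends of the 80 base hairpin, of a genome sequence that they named by number, without a chromosome or build. In the RefSeq gene table of Sscrofa11.1 (not matched to the build of the files), MIR378-1 lay within the interval of PPARGC1B, the gene of PGC-1β. The table also holds a further porcine hairpin, MIR378B, within the interval of RGS3, and no row of the files named it. Nearly all reads matched both ssc-mir-378-1 and ssc-mir-378-2, so they are not shown to come from the PPARGC1B hairpin.

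Ssc-miR-378 made up a larger share of the 63 d library than of the later ones. The 63 d library held 71706 of its reads, the 98 d library 67753 and the 161 d library 56195, out of 1464699, 2418187 and 2242716 reads listed in the 3 files. Levels are given as reads per 1000000 listed reads (RPM). The 63 d level was 48956 RPM, with a 95% interval of 48607 to 49307. The 98 d level was 28018 RPM, with an interval of 27811 to 28227. The 161 d level was 25057 RPM, with an interval of 24853 to 25262. None of these intervals overlapped, and the gap between 63 d and both later ages was far wider than the gap between 98 and 161 d. As a share of all listed reads this was 4.90%, 2.80% and 2.51%, and a count of 0 would have allowed up to 2.05, 1.24 and 1.34 RPM.

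**Figure D1:**
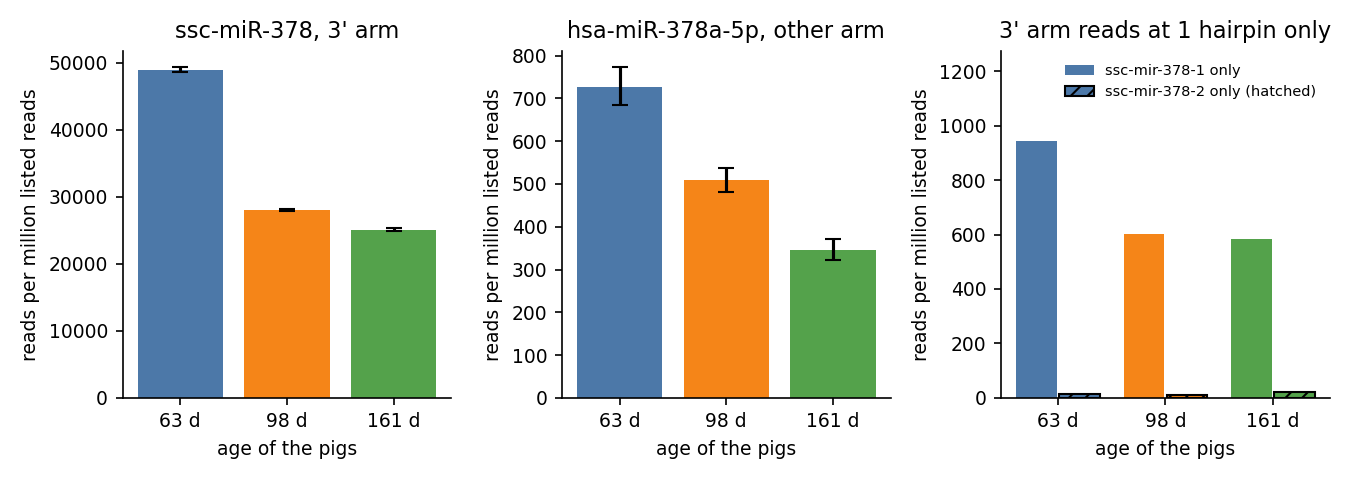
RPM (y axis) by age (x axis, 1 library of 6 pooled pigs each) for ssc-miR-378, for the other arm hsa-miR-378a-5p, and for the 3′ arm reads that matched 1 hairpin only, with 95% Clopper-Pearson bars in the first 2 panels. Ssc-miR-378 stood at 48956, 28018 and 25057 and the other arm at 728, 509 and 346, and reads of ssc-mir-378-1 only were far more frequent than those of ssc-mir-378-2 only.

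The 98 d level was 0.572 of the 63 d level, with a 95% interval of 0.566 to 0.578. The 161 d level was 0.894 of the 98 d level (0.884 to 0.904). Across the whole period, the 161 d level was 0.512 of the 63 d level (0.506 to 0.518). No ratio lay above 2 or below 0.5, the fold limits used here, although the 63 to 161 d ratio was close to the lower one. Among the porcine mature miRNAs with at least 10 reads in 1 of the 2 libraries, 41 of 243 (16.9%) were past those limits from 63 to 98 d, 36 of 244 (14.8%) from 98 to 161 d and 44 of 238 (18.5%) from 63 to 161 d. Below 0.5 alone lay 8 (3.29%), 30 (12.3%) and 26 (10.9%) of them, respectively.

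The direction of the later step depended on the scaling. The median log2 ratio over all compared miRNAs was 0.29 from 63 to 98 d, -0.31 from 98 to 161 d and 0.00 from 63 to 161 d on the scale of all listed reads. Relative to these medians, the log2 ratio of ssc-miR-378 was -1.09, 0.15 and -0.97. Scaling by TMM or by DESeq2 size factors brought the 63 to 98 d ratio to 0.490 and 0.466, both past the lower limit. The same factors gave 1.09 and 1.11 from 98 to 161 d, and leaving out ssc-miR-133a-3p from the total gave 1.02. The background moved as well, since 33 miRNAs above 2 and 8 below 0.5 from 63 to 98 d became 21 and 18 with TMM and 16 and 24 with DESeq2. From 98 to 161 d, 6 above and 30 below became 12 and 18 with TMM and 13 and 15 with DESeq2. Scaling to the clean reads of the study was chosen after seeing the data. It gave ssc-miR-378 ratios of 0.842 from 63 to 98 d, 0.747 from 98 to 161 d and 0.629 from 63 to 161 d. The split was then 100 above and 2 below from 63 to 98 d. Over the whole period it was 37 and 15, in place of 18 and 26. A lower level at 98 and 161 d than at 63 d was found with every scaling run, and a difference between 98 and 161 d had no fixed direction.

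**Figure D2:**
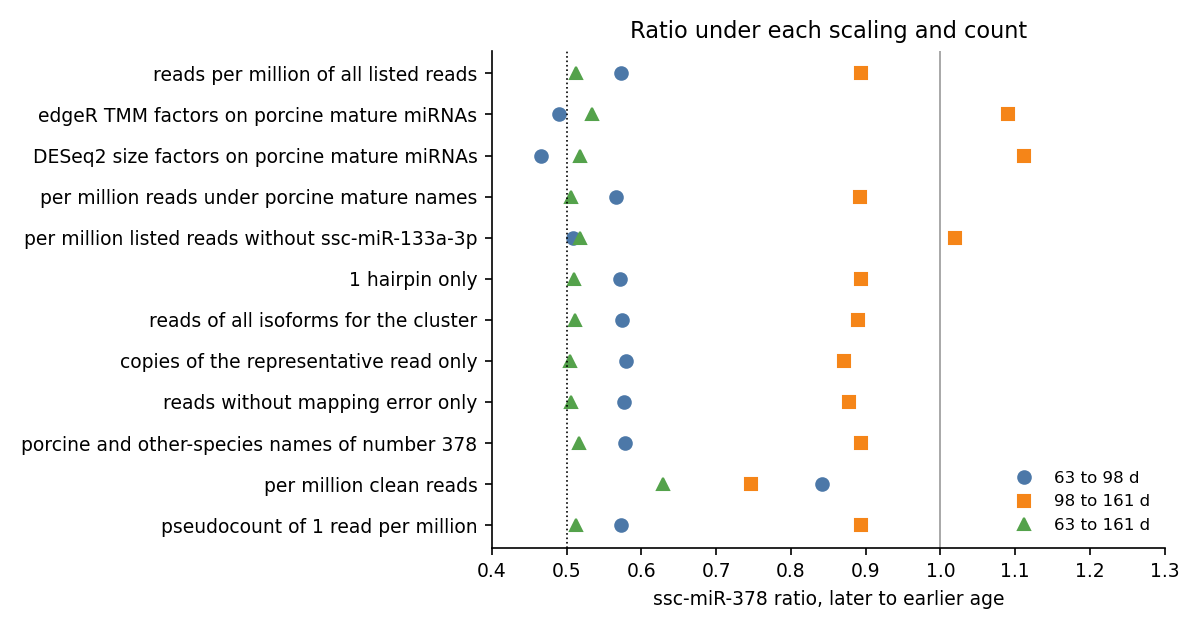
Ratio of ssc-miR-378 at the later to the earlier age (x axis) under each scaling or count (y axis), with a dotted line at 0.5 and a grey line at 1. The 63 to 98 d ratio ranged from 0.466 to 0.842 and the 63 to 161 d ratio from 0.505 to 0.629 over the 11 alternatives, whereas the 98 to 161 d ratio, from 0.747 to 1.11, lay on both sides of 1.

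At 63 d, ssc-miR-378 was the second most abundant porcine mature miRNA of 263, and at 98 and 161 d it held rank 7 of 268 and of 265. Above it at 63 d stood only ssc-miR-133a-3p, a muscle miRNA that alone took 43.3% of the listed reads. Directly below came ssc-let-7a, a member of the widely expressed let-7 family, at 42404 RPM, or 0.866 of ssc-miR-378 (0.857 to 0.876). At 98 d the neighbours were ssc-miR-1, another muscle miRNA, at 1.13 times ssc-miR-378 (1.12 to 1.14) and ssc-let-7f at 0.902 (0.892 to 0.912). At 161 d they were ssc-miR-143-3p, best known from smooth muscle, at 1.06 times (1.05 to 1.07) and ssc-miR-1 at 0.848 (0.838 to 0.859). Each neighbour differed from ssc-miR-378 by more than counting error, but the spread between pigs was not measured. With each miRNA counted at 1 hairpin, ssc-miR-378 held ranks 5, 9 and 10, because only part of its reads were then counted.

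**Figure D3:**
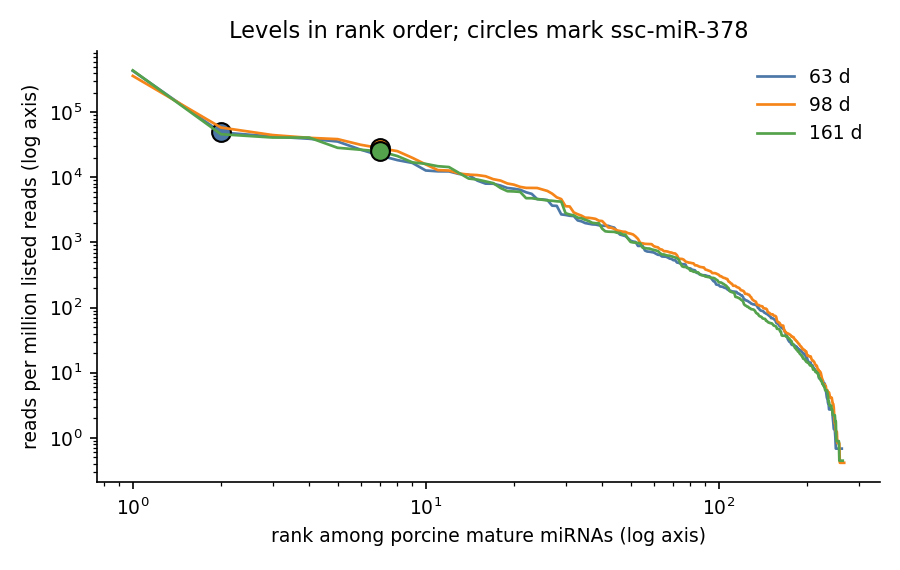
Level of each porcine mature miRNA (y axis, RPM, log axis) against its rank (x axis, log axis) in the 3 libraries, with circles at ssc-miR-378. The circle lies at rank 2 at 63 d and at rank 7 at 98 and 161 d.

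Few miRNAs of high abundance had a lower ratio from 63 d to the later ages. Of the 50 with at least 1000 RPM in both libraries, 3 had a lower ratio than ssc-miR-378 from 63 to 98 d, and 2 from 63 to 161 d. From 98 to 161 d, 29 of 50 had a lower one. Over all compared miRNAs, 16 of 242, 150 of 244 and 27 of 237 had a lower ratio in the 3 pairs. The order of ratios within a pair does not depend on the scaling, as 1 factor multiplies all of them.

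**Figure D4:**
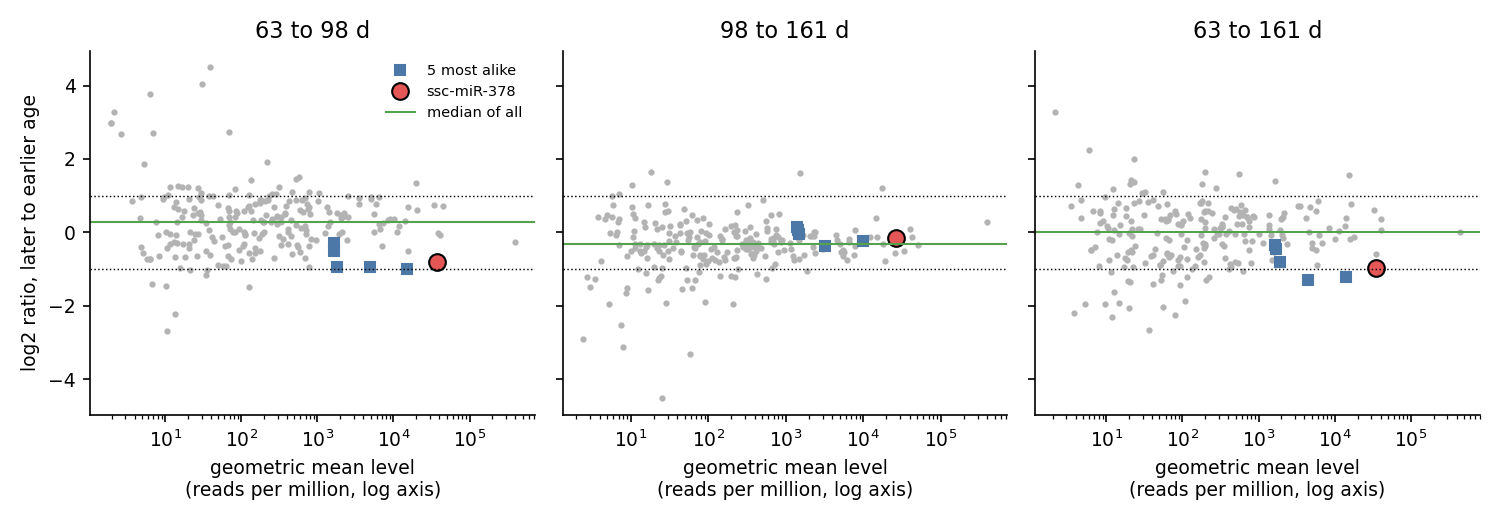
Log2 ratio of the later to the earlier age (y axis) against the geometric mean of both levels (x axis, RPM, log axis) for porcine mature miRNAs with at least 10 reads in 1 library of the pair and 1 or more in the other. Dotted lines mark 2-fold, the green line the median of all, blue squares the 5 miRNAs most like ssc-miR-378 and the red circle ssc-miR-378, which lies at -0.81, -0.16 and -0.97.

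The pattern over the 3 ages was most like that of ssc-miR-92a, of the miR-17-92 cluster, and ssc-miR-127, of the imprinted DLK1-DIO3 region. Likeness was the distance over the log2 ratios of the steps 63 to 98 d and 98 to 161 d, among 48 other miRNAs with at least 1000 RPM in all 3 libraries. Ssc-miR-92a, at a distance of 0.20, stood at 21570, 10840 and 9260 RPM. Ssc-miR-127, at 0.23, stood at 6870, 3608 and 2817. Both were thus highest at 63 d, with ratios of 0.503 and 0.525 from 63 to 98 d. The next were ssc-miR-423-3p at 0.33, ssc-miR-320 at 0.37 and ssc-miR-103 at 0.52. Ssc-miR-103, made from introns of pantothenate kinase genes, had flatter values of 1838, 1499 and 1455. On this scale 9 of the 48 were lower at both steps, 5 higher at both, 29 higher and then lower, and 5 lower and then higher. A distance over 3 libraries is a description of these libraries.

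Nearly all the reads could have come from either hairpin. The deposited reads divide a read equally between the hairpins it matches, and the undivided totals of each hairpin are given beside them, so that shared reads and those of 1 hairpin can be separated. Of the 71706 reads at 63 d, 70303 (98.0%) matched both hairpins, 1384 matched ssc-mir-378-1 only and 19 matched ssc-mir-378-2 only. The 98 d library had 66272 (97.8%), 1455 and 26 such reads, and the 161 d library 54841 (97.6%), 1306 and 48. Among the reads that told the hairpins apart, those of ssc-mir-378-1 were thus 72.8, 56.0 and 27.2 times as many as those of ssc-mir-378-2. How the shared reads divide between the hairpins was not measured.

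The reads of ssc-mir-378-1 only were also most frequent at 63 d. They stood at 945, 602 and 582 RPM. The ratio was 0.637 between the first ages (0.591 to 0.686) and 0.968 between the later ones (0.898 to 1.04). The few reads of ssc-mir-378-2 only went the other way at the later step, with a ratio of 1.99 from 98 to 161 d (1.21 to 3.34), against 0.829 (0.441 to 1.58) from 63 to 98 d. Most reads of ssc-mir-378-1 only carried a mapping error. Its row held 1299, 1375 and 1223 more reads with an error than the row of ssc-mir-378-2, but 66, 54 and 35 more without. An error that happens to match 1 hairpin better therefore cannot be told apart from a transcript of that hairpin.

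The other arm of ssc-mir-378-1 was present as well, at a far lower level. It was listed under its human name, hsa-miR-378a-5p, with the 22 nt read shown above, which fills bases 11 to 32 of the porcine hairpin without a mismatch and has a seed of its own. It counted 1066, 1231 and 776 reads, or 728 (685 to 773), 509 (481 to 538) and 346 (322 to 371) RPM. The 3 intervals did not overlap, in the same order of ages as the 3′ arm. The 161 d level was 0.475 of the 63 d level (0.433 to 0.522), past the lower fold limit, with an interval that crossed it. Counted as copies of the 22 nt read alone it was 0.512 (0.461 to 0.567), not past the limit. No such sequence stands in ssc-mir-378-2, so these reads belong to 1 hairpin alone.

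The ratio of ssc-miR-378 to the other arm was not constant. There were 67.3, 55.0 and 72.4 reads of ssc-miR-378 for each read of the other arm. Reads of ssc-miR-378 were summed over both hairpins, and those of the other arm belong to ssc-mir-378-1 alone. The ratio is therefore not the balance of the arms of 1 hairpin. Per 1000 reads of ssc-miR-378, the other arm made 14.9 reads in the 63 d library (13.98 to 15.8), 18.2 in the 98 d library (17.2 to 19.2) and 13.8 in the 161 d library (12.9 to 14.8). The library of 98 d was thus the high one, 1.22 times 63 d (1.12 to 1.33), and 161 d stood at 0.760 of 98 d (0.693 to 0.833). Between 63 and 161 d the change was 0.929, with an interval of 0.845 to 1.02, and 1.01 (0.912 to 1.12) between copies of the 2 representative reads. This ratio is taken within a library and does not depend on the scaling.

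Reads under ssc-miR-378 were not all of 1 form. The 22 nt read printed above, which matched without error, had 44629, 42704 and 34512 copies, or 62.2%, 63.0% and 61.4% of the reads of its arm. The rest were isoforms, which the files give as a sum. Reads with a mapping error made up 19.2%, 18.6% and 20.2%. The makeup of the arm therefore differed by at most a few percentage points between the ages.

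Further reads were listed under miR-378 names of other species, in 27, 41 and 38 rows at 63, 98 and 161 d, of which 14, 15 and 15 held at least 10 reads. Together they held 6194, 6432 and 5495 reads, or 8.64%, 9.49% and 9.78% of the reads of ssc-miR-378. Outside the other arm, 50 different reads stood under miR-378 names, and 11 of them, ssc-miR-378 included, had at least 10 copies in 1 library. The reads with the most copies are shown because they differ from ssc-miR-378 in their ends or seed. The capitals mark bases 2 to 8 of each read, and a token such as G21A gives the base of ssc-miR-378, its position from the 5′ end, and the base of the read.
23 nt form, 1 base longer: aCTGGACTtggagtcagaaggct
22 nt form, 5′ base lost and 1 base longer, G4T: cTTGACTTggagtcagaaggct
21 nt form, G21A: aCTGGACTtggagtcagaaga
20 nt form, G20A: aCTGGACTtggagtcagaaa
23 nt form, C22A: aCTGGACTtggagtcagaaggat
22 nt form, G21A and C22A: aCTGGACTtggagtcagaagaa
21 nt form, G21T: aCTGGACTtggagtcagaagt

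The longer 23 nt form was the most frequent. It had 2281, 2516 and 2013 copies, and its added 3′ base was not the base that follows the mature sequence in either of these hairpins. Per 1000 copies of the 22 nt read, the 63 d library had 51.1 (49.0 to 53.3), the 98 d library 58.9 (56.6 to 61.3) and the 161 d library 58.3 (55.7 to 61.0). The 63 d library was the low one, and 98 d stood at 1.15 times 63 d (1.09 to 1.22), whereas 161 d against 98 d gave 0.990 (0.932 to 1.05). With its isoforms, its row held 5690, 5247 and 4359 reads. The files list it as a bovine miR-378. They gave it no place on the genome at 63 d, but placed it with 1 error at 98 and 161 d, over the same stretch as ssc-mir-378-1.

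Both reads that end in an A in place of a G were more frequent beside ssc-miR-378 at 161 d than at 63 d. The 21 nt form with G21A had 118, 129 and 136 copies, or 2.64 (2.19 to 3.17), 3.02 (2.52 to 3.59) and 3.94 (3.31 to 4.66) per 1000 copies of ssc-miR-378. From 63 to 161 d this was a change of 1.49 times (1.16 to 1.92). The 20 nt form with G20A had 81, 134 and 127 copies, or 1.82 (1.44 to 2.26), 3.14 (2.63 to 3.72) and 3.68 (3.07 to 4.38) per 1000, a change of 2.03 times (1.52 to 2.71). In RPM the latter was level, with a ratio of 1.02 from 63 to 161 d (0.769 to 1.37), where ssc-miR-378 had 0.512. The G21A form was matched to the pig genome without error outside both porcine hairpins that hold ssc-miR-378, and the G20A form at such places without error or with 1 error. They were listed under names of bovine miR-378 and miR-378c or of human miR-378c and miR-378d. Whether they are ends of ssc-miR-378 or products of other loci was not tested.

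**Figure D5:**
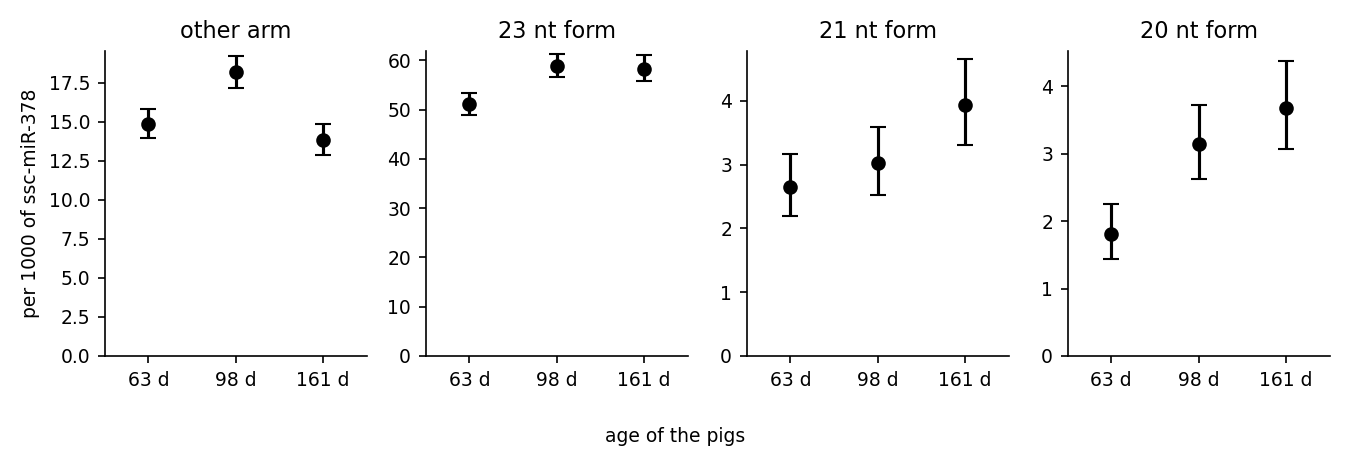
Reads of the other arm per 1000 reads of ssc-miR-378, and copies of the 23, 21 (G21A) and 20 nt (G20A) forms per 1000 copies of the 22 nt read (y axis, a scale for each panel, from 0), by age (x axis), with 95% Clopper-Pearson bars. The other arm was highest at 98 d (18.2), the 23 nt form lowest at 63 d (51.1), and the 21 and 20 nt forms reached 3.94 and 3.68 at 161 d from 2.64 and 1.82 at 63 d.

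The remaining forms were rarer. The form with C22A had 67, 50 and 53 copies, and the change against ssc-miR-378 from 63 to 161 d was 1.02 (0.6995 to 1.49). The form with G21A and C22A had 39, 48 and 55 copies, a change of 1.82 (1.19 to 2.82). The form with G21T had 42, 55 and 37 copies, a change of 1.14 (0.712 to 1.82). The form with the lost 5′ base and G4T, listed as a bovine miR-378b, had 144 and 124 copies at 98 and 161 d and was not listed at 63 d. The files name 1 representative read for each row, and the 63 d file has another layout than the others, so that a read not listed there is not shown to be absent. The other 3 forms with 10 or more copies in a library had at most 28.

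Of the 50 different reads, ssc-miR-378 itself included, 25 held its seed at bases 2 to 8 and 25 did not. With ssc-miR-378 left out, 2.04% of the copies at 63 d (55 of 2698) were without the seed at these bases. At 98 d it was 6.34% (200 of 3154), and at 161 d 6.55% (172 of 2626). The form with the lost 5′ base and G4T made up most of those copies at 98 and 161 d, with 144 and 124. It was not listed at 63 d, so the higher percentages at the later ages rest on that 1 form.

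The metabolic and host-gene miRNAs, a list of 25 beside ssc-miR-378, had higher ratios than ssc-miR-378 from 63 to 98 d in every listed case. This was near the share over all compared miRNAs, of which only 16 of 242 (6.61%) had a lower ratio than ssc-miR-378. The list was chosen with earlier results of these data known and also holds muscle miRNAs such as ssc-miR-1. Its shares are therefore a description only. Of the 25, 23 were listed, and ssc-miR-33a and ssc-miR-33b, intronic miRNAs of sterol regulatory genes, were not. On the scale of all listed reads, 20 of the 23 (87.0%) had a ratio above 1 from 63 to 98 d, against 63.6% of all 242 compared miRNAs. With TMM it was 15 of 23 against 54.1%, and with DESeq2 size factors 14 of 23 against 49.6%. On the scale of all listed reads 5 list members lay above 2 (2 with TMM or DESeq2), and none was below 0.5 or below ssc-miR-378. The 5 were ssc-miR-1 (2.557), ssc-miR-208b (2.125), ssc-miR-335 (2.068), ssc-miR-29b (2.003, 1.426 to 2.884) and ssc-miR-122 (16.35). Ssc-miR-122, a liver marker, had only 11 reads at 63 d, against 297 at 98 d. Over all tested miRNAs, 33 of 243 lay above 2 and 8 (3.29%) below 0.5. The median log2 ratio of the list was 0.44, against 0.29 over all compared miRNAs. From 98 to 161 d, 1 list member lay above 2 and 4 below 0.5 (2 with TMM or DESeq2), against 6 and 30 of all 244. The list median was -0.20 against -0.31. From 63 to 161 d, 1 list member lay above 2 and 1 below 0.5, against 18 and 26 of all 238. The list median was 0.05 against 0.00. One member, ssc-miR-130b at 0.482, had a lower ratio than ssc-miR-378, as did 27 of all 237 compared.

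Some list members that lie in genes of muscle fibre type or metabolism had levels well below ssc-miR-378. Ssc-miR-208b, in the slow myosin gene MYH7, stood at 535, 1136 and 822 RPM, and ssc-miR-499-5p, in MYH7B, at 1034, 1685 and 995. Both were highest at 98 d, unlike ssc-miR-378. Ssc-miR-107, from another pantothenate kinase gene, stood at 399, 424 and 412. Ssc-miR-143-3p, with a role in fat cell differentiation, was the member above 2 in both later comparisons, at 8916, 11450 and 26510 RPM.

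The muscle identity of the libraries was checked on marker miRNAs. All 7 muscle fibre markers were listed in each library, with a summed level of 439100 to 506400 RPM, and 56350 to 77470 without ssc-miR-133a-3p. Both sums include ssc-miR-486, also a red blood cell marker, at 39180, 38680 and 40910 RPM. Red blood cell markers without ssc-miR-486, which muscle also makes, summed to 808, 1491 and 1069, and endothelial markers (2 of 2) to 5833, 9769 and 6759. White blood cell markers (5 of 6, with ssc-miR-223 not listed) summed to 1234, 1721 and 1172. Fibroblast and smooth muscle markers (6 of 7) summed to 17080, 20990 and 34790, of which ssc-miR-143-3p alone held 8916, 11450 and 26510. From 98 to 161 d ssc-miR-145-5p was also higher, whereas ssc-miR-199a-3p, ssc-miR-199a-5p, ssc-miR-199b-5p and ssc-miR-214 were lower on this scale. Liver markers reached 299 at 98 d against 34.1 and 52.6. This sum holds 2 of 3 names, and leaves out the third, miR-194, which was listed as ssc-miR-194a (1.02, 6.62 and 0.892) and ssc-miR-194b-5p (1.71, 23.2 and 2.68). Neuronal markers (2 of 4 names, of which 3 spell miR-124) reached 3837 to 7351. Nearly all of this was ssc-miR-9, at 3677, 7147 and 5980, with ssc-miR-124a at 160, 204 and 235. Of the epithelial markers 1 of 5 was listed, at 164 to 304, and ssc-miR-200a, ssc-miR-200b, ssc-miR-200c and ssc-miR-141 were not. None of these sums was highest at 63 d, the age at which ssc-miR-378 was highest. Their part in its ratios was not tested, and in pooled tissue fewer cells of a type and less miRNA per cell cannot be told apart.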

How the data were processed

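Each of the 3 libraries had 1 deposited text file. The authors made it with ACGT101-miR v4.2, which filtered the reads and mapped them to miRBase hairpins and to the pig genome. The genome build is not given in the sources used here. The deposited files hold counts, the whole copies of 1 representative read for each arm, and expected counts, the reads of all isoforms of an arm, in which the authors' pipeline divided a read between the hairpins it matched. Neither was normalised.

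Here the expected counts of ssc-miR-378 were summed over its hairpins and scaled to reads per 1000000 reads listed in the file (RPM). With 1 library per age no test between ages was made, and ratios carry 95% Clopper-Pearson intervals of counting error. Divided reads of other miRNAs were rounded to whole numbers for their intervals. A ratio above 2 or below 0.5 was counted as past the fold limits, among miRNAs with at least 10 reads in 1 of the 2 libraries, and a count of 0 was set to 3 reads. Reads matching both hairpins were obtained from the undivided totals, and both hairpins gave the same number. Reads were matched between libraries by their bases, since their names differ between files. Changes of a form against ssc-miR-378 are sample odds ratios with exact conditional intervals. The RefSeq table of Sscrofa11.1 was used for gene names and neighbours only. The sequence and position of ssc-mir-378-2 are not reported here.

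Named beside ssc-miR-378 are its rank neighbours, the 5 miRNAs most alike, the other arm and other-species miR-378 reads with at least 10 copies. A list of metabolic, host-gene and muscle miRNAs is named as well. Members, lists and rules were chosen with earlier results of these data known. Alternatives were other scalings (edgeR's TMM and DESeq2 size factors, used for scaling only), counts and filters. Scaling to the clean reads stated by the study, other scalings of the metabolic list and copies of the other arm were added after the data had been seen. The ratios and calls were run on simulated counts with counting error only, in which changed miRNAs lay far past the fold limits. Those simulations did not cover variation between pigs, ratios near the limits or miRNAs with few reads. Programs were Python 3.11.15, numpy 2.4.6, scipy 1.17.1, matplotlib 3.10.9, R 4.3.3, edgeR 4.0.16 and DESeq2 1.42.0.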

Additional observations from a re-analysis of the deposited data

How the results depend on the processing

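Over 11 alternatives each, the ratio of ssc-miR-378 stayed below 1 in all 11 from 63 to 98 d and from 63 to 161 d, and in 8 from 98 to 161 d. With TMM, DESeq2 size factors and a total without ssc-miR-133a-3p the ratios were 0.490, 0.466 and 0.509 from 63 to 98 d, 1.09, 1.11 and 1.02 from 98 to 161 d, and 0.534, 0.518 and 0.518 from 63 to 161 d. Scaled to the clean reads of the study they were 0.842, 0.747 and 0.629. Copies of the representative read gave 0.580, 0.871 and 0.505. Error-free reads gave 0.877 from 98 to 161 d and 0.506 from 63 to 161 d, porcine-named totals 0.506 from 63 to 161 d, and porcine and other-species miR-378 names together gave 0.5785 from 63 to 98 d. The cause of these shifts was not tested. The other 14 values lay within the interval of the reported ratio.

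The number of porcine mature miRNAs past 2-fold was 1, 2 and 4 in the 3 pairs at 1000 or more RPM in both libraries, where fewer miRNAs were compared. From 63 to 98 d it was 70 with limits of 1.8 and 0.56, and 102 with clean reads (100 above and 2 below). From 63 to 161 d clean reads turned the split of 18 above and 26 below into 37 and 15. No paired analysis was possible because each age had 1 library. Depth limits the rare forms, whose intervals are wide.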
